A study of Rattus norvegicus with 12 samples.

Results

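Septins are a family of GTP-binding proteins of the cytoskeleton, and their mRNAs were followed here in cultured heart muscle cells of newborn rats. The rows were chosen by gene symbol. The table writes septin symbols as dates, so that n-Sep stands for septin n, and the NCBI gene identifier of each row is that of the septin of the same number in RefSeq. The 10 rows 2-Sep to 11-Sep were taken among the 18483 genes measured, and 1 further septin row, 1-Sep, is given with the closing observations. The family was taken up with its values across the 4 groups known, so the fold changes and adjusted p-values given for septins are descriptions and no independent support.

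RNA was sequenced from neonatal rat ventricular myocytes (NRVMs) of Sprague-Dawley rats in 4 groups with 3 biological replicates each, 12 samples in all. The siNeg cells received a control siRNA and the siSlc39a2 cells received an siRNA of 1 sequence against Slc39a2, which encodes a zinc importer of the cell surface. In the siNeg PE and siSlc39a2 PE groups, phenylephrine (PE), an agonist of alpha-adrenergic receptors that makes cardiomyocytes grow, was given for 36 h starting 12 h after transfection, by the sample labels. The culture methods of the study give a longer exposure, so its duration is uncertain. The 4 comparisons ask what the knockdown did to septin mRNA without and with PE, and what PE did in control and in knockdown cells. All groups were primary cultures of ventricular cells enriched for myocytes on Percoll, so they are neither an adult heart nor a pure cell type, and in bulk RNA fewer cells of a type and less RNA per cell cannot be told apart.

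Slc39a2 itself had between 50 and 59 counts in the siNeg samples and between 2 and 21 in the siSlc39a2 samples, and with PE between 95 and 198 against between 25 and 38. Total counts per sample were between 24065539 and 28603854. Replicates within a group were further apart than sampling of reads would put them, with chi-square values per degree of freedom from 4.67 to 33.8. The largest was that of siSlc39a2 PE replicates 1 and 3, and replicate 3 of this group matters for several septins below. The 8 cardiomyocyte markers summed to between 44340 and 45480 CPM (counts scaled to the TMM-normalized library size) in siNeg and between 42200 and 45730 in siNeg PE. Their sums were lower with the knockdown, between 34960 and 36250 CPM in siSlc39a2 and between 37980 and 38510 CPM in siSlc39a2 PE. Myh6 alone averaged 15860 CPM in control and 7407 CPM in knockdown cells without PE, and 8199 and 3672 CPM with it. At an adjusted p below 0.05 in edgeR, the knockdown lowered 4 of the 8 without PE and 3 with PE, and raised 0. Without PE, Myh7, Tnnt2 and Pln were not among them (log2 fold changes -0.049, 0.078 and 0.291). PE in control cells lowered Myh6 and raised Myh7 (-0.952 and 0.572), changes that go opposite ways in the sum. The 8 fibroblast markers, with Col1a1 on top, summed to between 13860 and 18350 CPM in siNeg and to between 5338 and 5643 CPM in siSlc39a2.

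Septin subunits bind each other side by side through their GTP-binding domains and form rods that join into filaments and rings on actin, microtubules and membranes. By sequence the family falls into the SEPT2, SEPT3, SEPT6 and SEPT7 subgroups, and a member can be replaced in the rod by another of its own subgroup. Septin rings and filaments are known as scaffolds in cytokinesis, as barriers to diffusion in membranes and as organizers of the cell cortex, and in muscle they lie near the contractile apparatus.

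All 10 septins passed the filter on low counts, but at very different levels. FPKM values, which are scaled to transcript length and so allow genes to be compared, were highest for 8-Sep in siNeg, at 47.7 ± 5.66 FPKM (SD, n = 3). They were followed by 2-Sep at 40.2 ± 6.94, 9-Sep at 35.9 ± 2.21 and 11-Sep at 31.4 ± 4.85 FPKM. The replicate values of each of these overlapped those of the next in this order. At middle levels lay 5-Sep at 19.6 ± 1.69, 7-Sep at 18.0 ± 2.45 and 4-Sep at 13.5 ± 1.99 FPKM, again each overlapping the next. Clearly lower, and apart from each other, were 6-Sep at 5.34 ± 0.408, 10-Sep at 2.50 ± 0.671 and 3-Sep at 0.603 ± 0.136 FPKM. The order was another in siSlc39a2 PE: 2-Sep led at 83.7 ± 14.8 FPKM, 7-Sep was second at 44.4 ± 15.1, and 4-Sep had dropped to ninth at 2.25 ± 0.316 FPKM. Between 7-Sep, 8-Sep and 11-Sep in that group the replicate values of 7-Sep spanned those of the other two, so their order was not resolved.

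**Figure D1:**
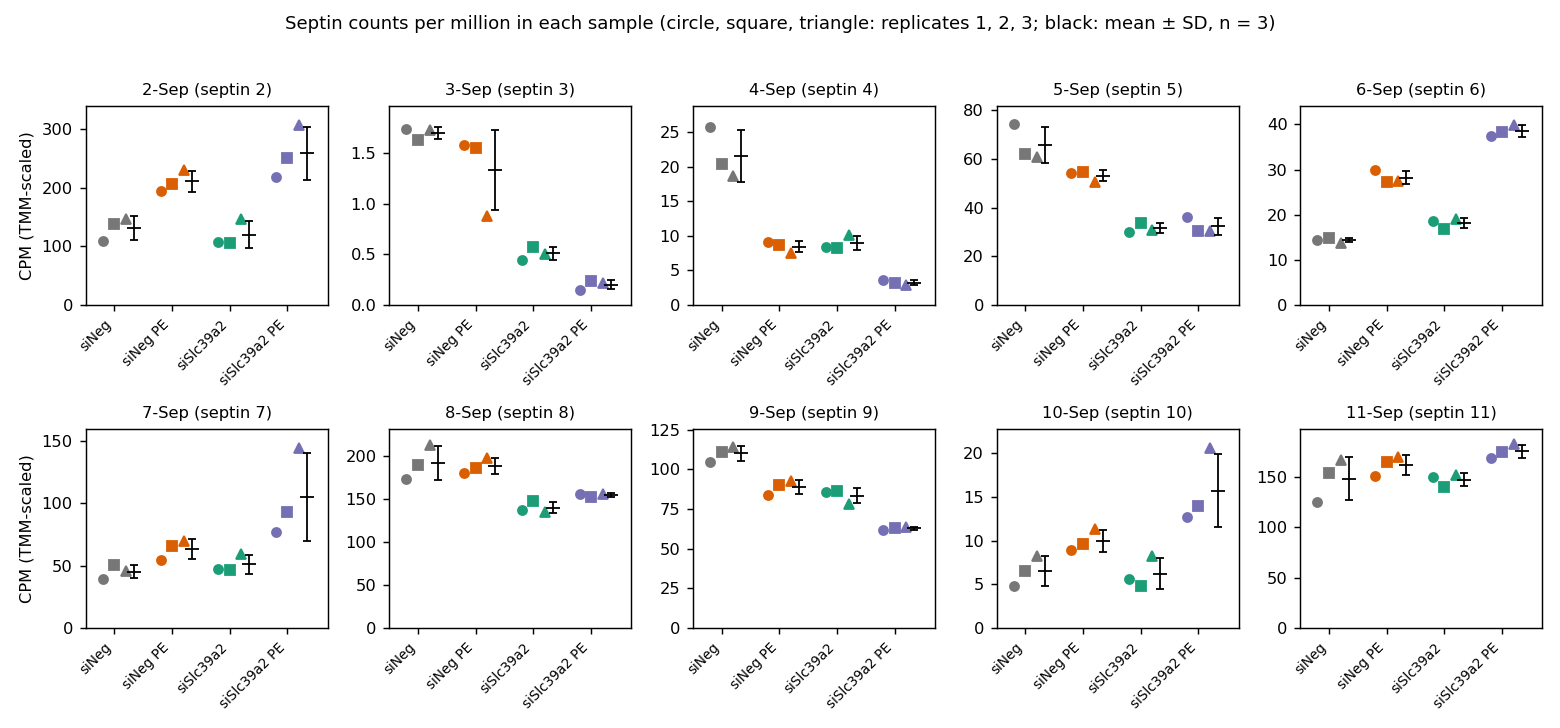
Each panel plots the level of 1 septin in CPM (vertical axis, from 0) in the 4 groups (horizontal axis), with circles, squares and triangles for replicates 1, 2 and 3 and a black mean with SD (n = 3). 3-Sep and 4-Sep are lowest in siSlc39a2 PE and 5-Sep is lower in both knockdown groups, while the panels of 2-Sep, 6-Sep, 7-Sep and 10-Sep are highest in siSlc39a2 PE, where the triangle of 7-Sep stands at 144 CPM.

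Slc39a2 knockdown without PE lowered 5 septins (3-Sep, 4-Sep, 5-Sep, 8-Sep and 9-Sep) and raised 1 (6-Sep) at an adjusted p below 0.05 in the edgeR fit. Of all 13967 genes tested, 26.4% were lower and 22.8% were higher by the same rule. The falls of 3-Sep, 4-Sep and 5-Sep were the 3 that also exceeded an absolute log2 fold change of 1, a size reached by 9.78% of all genes. The median log2 fold change of the 10 septins was -0.27 and that of all genes was -0.02. The other septins had log2 fold changes of -0.13 (95% interval -0.46 to 0.20) for 2-Sep, 0.17 (-0.25 to 0.60) for 7-Sep, -0.07 (-0.60 to 0.46) for 10-Sep and -0.01 (-0.21 to 0.18) for 11-Sep.

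PE in control cells raised 3 septins (2-Sep, 6-Sep and 10-Sep) and lowered 3 (4-Sep, 5-Sep and 9-Sep), against 24.0% of all genes higher and 25.7% lower. Only 4-Sep passed both thresholds, as did 6.60% of all genes. The median of the septins was 0.05 on the log2 scale, with -0.01 for all genes. PE in knockdown cells raised 5 septins (2-Sep, 6-Sep, 7-Sep, 10-Sep and 11-Sep) and lowered 3 (3-Sep, 4-Sep and 9-Sep), with 30.7% of all genes higher and 29.3% lower. Of these, 6 septins passed both thresholds, where 10.5% of all genes did. With single samples left out, the log2 fold change went down to 0.967 for 2-Sep and to 0.739 for 7-Sep, below the threshold of 1. The call of 11-Sep, at a log2 fold change of 0.26, was lost without either of siSlc39a2 PE replicates 2 and 3 and without any of the siSlc39a2 replicates (adjusted p between 0.0560 and 0.104 from edgeR).

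In PE-treated cells, the knockdown lowered 5 septins (3-Sep, 4-Sep, 5-Sep, 8-Sep and 9-Sep) and raised 3 (6-Sep, 7-Sep and 10-Sep), where 28.1% of all genes were lower and 29.2% higher. Of these 3-Sep and 4-Sep passed both thresholds, as did 11.6% of all genes. The median log2 fold change of the septins was -0.08 and that of all genes 0.01. The 2 comparisons of the knockdown share no samples, but each comparison of PE shares its untreated or treated samples with a comparison of the knockdown. For the difference between the knockdown effects with and without PE, fits without the replicate number called 0 of 10 septins (edgeR, DESeq2 and limma). Of all genes, edgeR called 3.61%, and 3 septins (3-Sep, 5-Sep and 10-Sep) had an unadjusted p below 0.05 in it. A fit with the replicate number is given in the closing section. The estimates of this interaction were -0.96 (95% interval -1.89 to -0.04) for 3-Sep, 0.34 (0.05 to 0.64) for 5-Sep and 0.73 (0.01 to 1.46) for 10-Sep, with adjusted p-values of 0.280, 0.232 and 0.305.

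**Figure D2:**
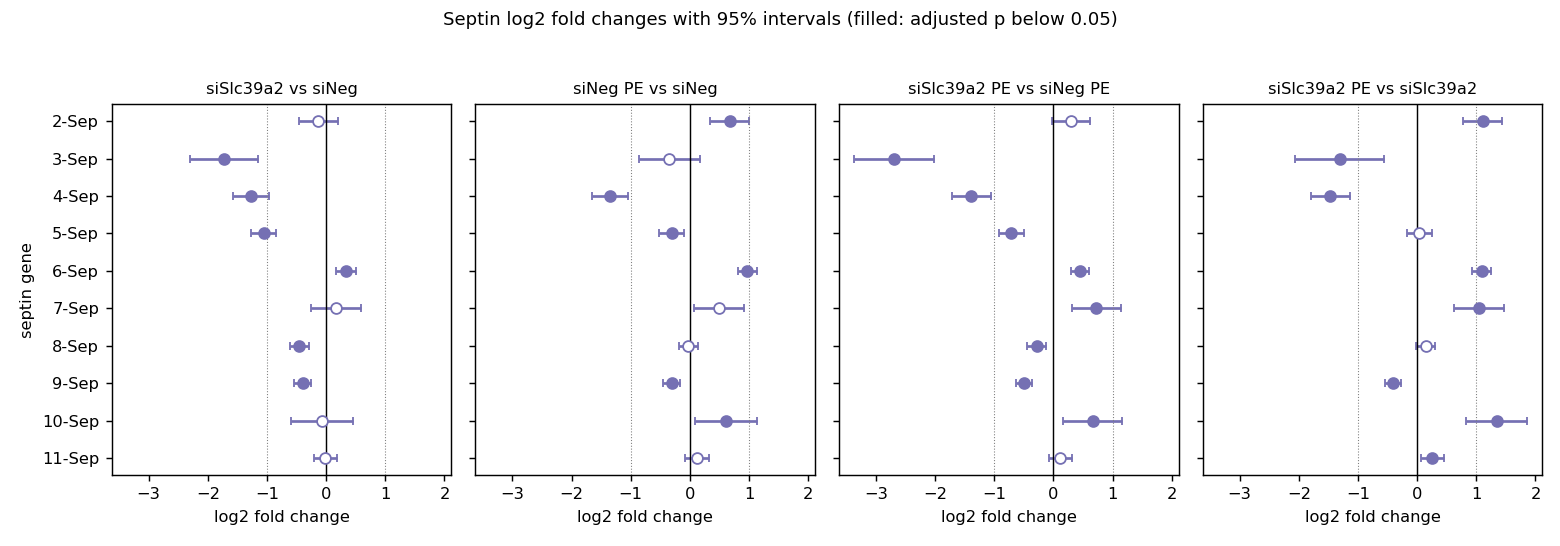
Log2 fold changes (horizontal axis) of the 10 septins (vertical axis) in the 4 comparisons, with 95% intervals from the edgeR fit over n = 3 samples per group. Filled points have an adjusted p below 0.05 and dotted lines mark a log2 fold change of 1 in either direction. 4-Sep lies below -1 in all 4 panels, and 6-Sep lies above 0 in all 4.

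Within the SEPT2 subgroup, 4-Sep fell in all 4 comparisons and 5-Sep with the knockdown, while 2-Sep rose with PE. Septin 4 is found in brain, heart and testis, where it is needed for the sperm tail, and a splice form of it named ARTS binds the apoptosis inhibitor XIAP. The 4-Sep row had 25.8, 20.4 and 18.6 CPM in siNeg, 9.08, 8.70 and 7.58 in siNeg PE, and 8.45, 8.31 and 10.1 in siSlc39a2. In siSlc39a2 PE it had 3.65, 3.12 and 2.91 CPM. All siNeg samples lay above all others and all siSlc39a2 PE samples lay below all others, while siNeg PE and siSlc39a2 overlapped. The knockdown lowered 4-Sep 2.41-fold without PE (log2 fold change -1.27, SE 0.14, adjusted p = 8.73e-06 from edgeR) and 2.62-fold with PE (-1.39, SE 0.15, adjusted p = 8.88e-06). PE lowered it 2.55-fold in control cells (-1.35, SE 0.14, adjusted p = 1.24e-05) and 2.78-fold in knockdown cells (-1.47, SE 0.15, adjusted p = 6.95e-06). The interaction of knockdown and PE was -0.12 on the log2 scale (95% interval -0.56 to 0.32). The counts of 4-Sep were not whole in 12 of 12 samples, which means that its reads were shared with other features, and the counts do not separate ARTS from the other splice forms.

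Septin 5 is a presynaptic septin that binds syntaxin and is also abundant in platelets. It had 74.3, 62.1 and 61.0 CPM in siNeg and 54.1, 54.8 and 50.4 CPM in siNeg PE. In siSlc39a2 it had 30.1, 33.9 and 30.6 CPM and in siSlc39a2 PE 36.3, 30.4 and 30.3 CPM. Every knockdown sample lay below every control sample, with or without PE, and the knockdown groups overlapped each other. The fall with the knockdown was 2.08-fold without PE (log2 fold change -1.06, SE 0.10, adjusted p = 1.84e-06 from edgeR) and 1.64-fold with PE (-0.72, SE 0.10, adjusted p = 5.29e-05). The smaller fall with PE in control cells (-0.31, SE 0.10, adjusted p = 0.0178) was lost without siNeg replicate 1 (-0.21, adjusted p = 0.0837) and without siNeg PE replicate 3 (-0.27, adjusted p = 0.0717). In knockdown cells the log2 fold change with PE was 0.03 (95% interval -0.18 to 0.25).

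The 5-Sep row shares reads with the platelet gene Gp1bb, which lies next to septin 5 in RefSeq and has a row of its own. The 3 samples in which the 5-Sep count was not whole were those in which Gp1bb had counts. In siNeg PE replicate 2, 1557.5 counts of 5-Sep and 43.5 of Gp1bb add up to a whole 1601. The share of Gp1bb in this sum was 2.72% in that sample, 1.01% in siNeg PE replicate 1, 0.52% in siSlc39a2 PE replicate 1 and 0 in the others, as the counting program divided the reads.

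Septin 2 is the subunit for which the subgroup is named and is found in most cell types. It had 109, 139 and 148 CPM in siNeg and 108, 106 and 147 CPM in siSlc39a2. With PE it had 195, 207 and 231 CPM in control cells and 218, 251 and 307 CPM in knockdown cells. All PE samples lay above all untreated samples, and within each treatment the control and knockdown samples overlapped. PE raised 2-Sep 1.60-fold in control cells (log2 fold change 0.68, SE 0.15, adjusted p = 0.00311 from edgeR) and 2.16-fold in knockdown cells (1.11, SE 0.15, adjusted p = 6.99e-05). Between the PE groups the knockdown effect was 0.30 (95% interval -0.03 to 0.62, adjusted p = 0.110), and without siSlc39a2 PE replicate 1 it was 0.40 with an adjusted p of 0.0357. Without siSlc39a2 PE replicate 3 it was 0.155, with an adjusted p of 0.411 from edgeR.

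In the SEPT3 subgroup both measured members fell with the knockdown. Septin 3 is known mainly from neurons. It was the rarest septin, with 44, 43 and 44 counts in siNeg, 43, 44 and 24 in siNeg PE, and with the knockdown 13, 17 and 13 without PE and 4, 7 and 6 with PE. Every knockdown sample lay below every control sample, and every siSlc39a2 PE sample lay below every siSlc39a2 sample. The knockdown lowered it 3.31-fold without PE (log2 fold change -1.73, SE 0.27, adjusted p = 1.67e-04 from edgeR) and 6.44-fold with PE (-2.69, SE 0.31, adjusted p = 1.35e-05), the largest fold change of any septin in the 4 comparisons. PE lowered it 2.47-fold in knockdown cells (-1.31, SE 0.35, adjusted p = 0.00556), and in control cells its log2 fold change was -0.34 (95% interval -0.86 to 0.18). With so few counts the sizes are known less well than the direction. Its FPKM values are a poor measure: 43 counts in siNeg PE replicate 1 were given as 0.30 FPKM and 44 counts in replicate 2 as 0.68 FPKM. The transcript length that counts and FPKM imply ranged from 1.57 to 5.48 kb for 3-Sep (coefficient of variation 45.1% over the 12 samples), while for the other 9 septins this coefficient was at most 4.21%.

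Septin 9, which sits at the centre of the longer rods and binds microtubules and actin, had 105, 111 and 114 CPM in siNeg and 83.8, 90.5 and 92.4 CPM in siNeg PE. It had 85.8, 86.5 and 78.0 CPM in siSlc39a2 and 61.7, 63.3 and 63.8 CPM in siSlc39a2 PE. As for 4-Sep, the siNeg samples were the highest, the siSlc39a2 PE samples the lowest, and the remaining groups overlapped, but the changes were smaller. Its log2 fold changes were -0.40 (SE 0.06) and -0.50 (SE 0.07) with the knockdown without and with PE, and -0.31 (SE 0.06) and -0.41 (SE 0.07) with PE in control and knockdown cells. All had adjusted p-values of at most 0.00194 in edgeR. Its counts were not whole in 11 of 12 samples, so reads were shared with other features.

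In the SEPT6 subgroup, whose members can take the same place in the rod, 6-Sep rose in all 4 comparisons. 10-Sep rose with PE, 8-Sep fell with the knockdown, and 11-Sep changed little. 6-Sep had 14.5, 14.8 and 13.8 CPM in siNeg, 29.9, 27.3 and 27.5 in siNeg PE, and 18.5, 16.9 and 19.0 in siSlc39a2. In siSlc39a2 PE it had 37.5, 38.3 and 40.0 CPM. The 4 groups did not overlap and rose in the order siNeg, siSlc39a2, siNeg PE, siSlc39a2 PE. PE raised 6-Sep 1.96-fold in control cells (log2 fold change 0.97, SE 0.08, adjusted p = 1.15e-06 from edgeR) and 2.13-fold in knockdown cells (1.09, SE 0.07, adjusted p = 1.84e-07). The knockdown raised it 1.26-fold without PE (0.34, SE 0.08, adjusted p = 0.00263) and 1.37-fold with PE (0.45, SE 0.07, adjusted p = 1.85e-04). Of the 10 members, 6-Sep was called higher and 4-Sep and 9-Sep were called lower in each of the 4 comparisons. These comparisons share samples, and the share of all genes called alike in all 4 was not counted.

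10-Sep had 4.78, 6.52 and 8.24 CPM in siNeg, 8.88, 9.64 and 11.3 in siNeg PE, and 5.64, 4.81 and 8.19 in siSlc39a2. In siSlc39a2 PE it had 12.7, 13.9 and 20.5 CPM. All PE samples lay above the untreated ones and all siSlc39a2 PE samples above the siNeg PE ones. The rise with PE in knockdown cells was 2.54-fold (log2 fold change 1.34, SE 0.24, adjusted p = 4.10e-04 from edgeR). In control cells it was 1.53-fold (0.61, SE 0.24, adjusted p = 0.0493), and this call was lost without siNeg replicate 1 or 2 or any 1 of the siNeg PE replicates (0.43 to 0.69, adjusted p between 0.0519 and 0.180). The knockdown effect with PE was 0.66 (SE 0.23, adjusted p = 0.0253) and was lost without siNeg PE replicate 1 (0.59, adjusted p = 0.0835) or 2 (0.64, adjusted p = 0.0701). Without siSlc39a2 PE replicate 3 it was 0.42 (adjusted p = 0.130).

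8-Sep, the septin with the highest level in siNeg, had 173, 190 and 213 CPM in siNeg and 180, 186 and 198 CPM in siNeg PE. It had 137, 147 and 135 CPM in siSlc39a2 and 156, 152 and 156 CPM in siSlc39a2 PE. Every knockdown sample lay below every control sample, while the samples with and without PE overlapped in control cells. The knockdown lowered it by a log2 fold change of -0.46 (SE 0.07, adjusted p = 2.55e-04 from edgeR) without PE and -0.28 (SE 0.07, adjusted p = 0.00565) with PE. With PE its log2 fold changes were -0.03 (95% interval -0.19 to 0.13) in control cells and 0.15 (-0.02 to 0.31) in knockdown cells. 11-Sep stayed between 125 and 183 CPM in all 12 samples. None of its 4 log2 fold changes was larger than the 0.26 with PE in knockdown cells.

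Septin 7 has no sister in its subgroup that could replace it and is part of all the common rods. Its row had 39.5, 50.4 and 45.7 CPM in siNeg, 54.5, 66.0 and 69.7 in siNeg PE, and 47.1, 46.1 and 59.6 in siSlc39a2. In siSlc39a2 PE it had 77.1, 92.7 and 144 CPM. The siSlc39a2 PE samples lay above all others, with replicate 3 far above its fellows, and the control groups with and without PE did not overlap. PE raised 7-Sep 2.06-fold in knockdown cells (log2 fold change 1.04, SE 0.20, adjusted p = 6.29e-04 from edgeR) and the knockdown raised it 1.65-fold with PE (0.73, SE 0.19, adjusted p = 0.00626). Without siSlc39a2 PE replicate 3 the latter was 0.42 (adjusted p = 0.0247). The rise with PE in knockdown cells was between 0.739 and 1.2 on the log2 scale with single samples left out (adjusted p at most 0.00463 from edgeR). In control cells the log2 fold change with PE was 0.49 (95% interval 0.06 to 0.91, adjusted p = 0.0544), and it was called without siNeg PE replicate 1 (0.58, adjusted p = 0.0403), in DESeq2 (adjusted p = 0.0264) and without the filter on low counts (adjusted p = 0.0353). The counts of 7-Sep and 11-Sep were not whole in 12 of 12 samples, so reads were shared with other features.

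Several septins shared their order among replicates. 2-Sep, 10-Sep and 11-Sep were each highest in replicate 3 in all 4 groups, and 7-Sep, 8-Sep and 9-Sep in 3 of them. In siSlc39a2 PE, replicate 3 was the highest for 2-Sep, 6-Sep, 7-Sep, 8-Sep, 9-Sep, 10-Sep and 11-Sep and the lowest for 4-Sep and 5-Sep.

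The promoters of the septins that changed differed in their letters. RefSeq (build GRCr8) gave the promoter, 250 bases before and 50 after the start, for 7 of the 10 septins (2-Sep, 4-Sep, 7-Sep, 8-Sep, 9-Sep, 10-Sep and 11-Sep). Those of 2-Sep (chr9:101465367-101465666, plus strand), 7-Sep (chr8:31995348-31995647, plus strand) and 10-Sep (chr20:27737765-27738064, minus strand) are printed because these 3 mRNAs rose together with PE in knockdown cells. That of 4-Sep (chr10:72863764-72864063, plus strand) is printed because 4-Sep fell in each comparison. 9-Sep also fell in each, by less, and its window is not printed but is described below. Sequences run 5′ to 3′ and capitals mark GC boxes (GGGCGG, either strand, overlapping matches joined) and CCAAT boxes (CCAAT, either strand).
2-Sep: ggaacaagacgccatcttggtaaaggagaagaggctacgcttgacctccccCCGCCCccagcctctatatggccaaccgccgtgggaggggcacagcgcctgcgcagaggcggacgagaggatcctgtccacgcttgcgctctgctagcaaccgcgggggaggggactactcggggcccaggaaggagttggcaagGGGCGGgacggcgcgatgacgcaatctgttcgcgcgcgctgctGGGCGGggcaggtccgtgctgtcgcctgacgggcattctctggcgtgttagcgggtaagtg
7-Sep: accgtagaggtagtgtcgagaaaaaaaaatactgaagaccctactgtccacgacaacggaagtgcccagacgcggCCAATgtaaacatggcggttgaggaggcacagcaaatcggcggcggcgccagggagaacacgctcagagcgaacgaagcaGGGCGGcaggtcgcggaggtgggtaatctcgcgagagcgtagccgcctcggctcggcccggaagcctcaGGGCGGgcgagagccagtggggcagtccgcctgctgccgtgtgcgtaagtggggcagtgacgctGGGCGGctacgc
10-Sep: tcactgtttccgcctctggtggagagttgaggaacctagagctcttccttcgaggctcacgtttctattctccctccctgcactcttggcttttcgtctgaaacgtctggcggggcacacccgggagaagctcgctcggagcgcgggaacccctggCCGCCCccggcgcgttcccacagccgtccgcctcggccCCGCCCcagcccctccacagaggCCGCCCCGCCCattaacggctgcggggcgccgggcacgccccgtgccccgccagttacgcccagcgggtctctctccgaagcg
4-Sep: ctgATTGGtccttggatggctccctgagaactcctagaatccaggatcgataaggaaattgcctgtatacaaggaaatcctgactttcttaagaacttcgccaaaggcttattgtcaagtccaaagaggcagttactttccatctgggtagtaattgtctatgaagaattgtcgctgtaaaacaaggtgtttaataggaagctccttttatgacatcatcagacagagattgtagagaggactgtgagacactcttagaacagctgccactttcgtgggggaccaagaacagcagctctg
The 4-Sep window held 4 CG pairs and no GC box, while the others printed held 29 (2-Sep), 32 (7-Sep) and 32 (10-Sep) CG pairs and between 3 and 4 GC boxes. Over all 27457 rat promoters of the same length the median was 7 CG pairs and 34.9% held a GC box, as did 6 of the 7 septin promoters. The CCAAT box was in 3 of the 7 and in 37.7% of all promoters. The interferon-stimulated element (searched as GAAANNGAAA, either strand) was in the 9-Sep window alone among the 7 and in 3.77% of all. TATAAA was in none of the 7 and in 14.3% of all, the CArG box in none and in 1.64%, and the MCAT box (CATTCC, either strand) in none and in 13.9%. CG pairs were also many in 8-Sep (37), which fell with the knockdown, and 11-Sep (27), and fewer in 9-Sep (13). The other septins had no window, and whether CG content goes with the direction of change was not tested. These matches are descriptions of letters, not binding sites.

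The makeup of the septin pool differed between the groups. Summed over the 10 members, septin mRNA was 215 ± 18.2 FPKM in siNeg and 249 ± 16.3 FPKM in siNeg PE, and 194 ± 14.7 FPKM in siSlc39a2 and 265 ± 32.4 FPKM in siSlc39a2 PE (SD, n = 3). The share of the SEPT2 subgroup was 34.2% ± 1.40 in siNeg and 29.3% ± 2.27 in siSlc39a2, and with PE it was 36.4% ± 0.185 in control and 36.4% ± 0.769 in knockdown cells. Between siNeg and siSlc39a2 PE the share of 2-Sep in the whole family went from 18.6% ± 1.74 to 31.5% ± 1.83, that of 5-Sep from 9.20% ± 1.62 to 4.01% ± 0.848 and that of 4-Sep from 6.36% ± 1.51 to 0.868% ± 0.217. The SEPT3 subgroup, almost wholly 9-Sep, went from 17.0% ± 0.619 in siNeg to 12.3% ± 0.277 in siNeg PE. It was 16.2% ± 1.47 in siSlc39a2 and 8.62% ± 1.18 in siSlc39a2 PE. The share of 7-Sep went the other way, from 8.39% ± 0.721 to 10.7% ± 0.835, 11.5% ± 0.989 and 16.5% ± 3.50 in the same order. The SEPT6 subgroup stayed between 38.5% and 42.9% on group average. These are mRNA shares, and no protein was measured.

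**Figure D3:**
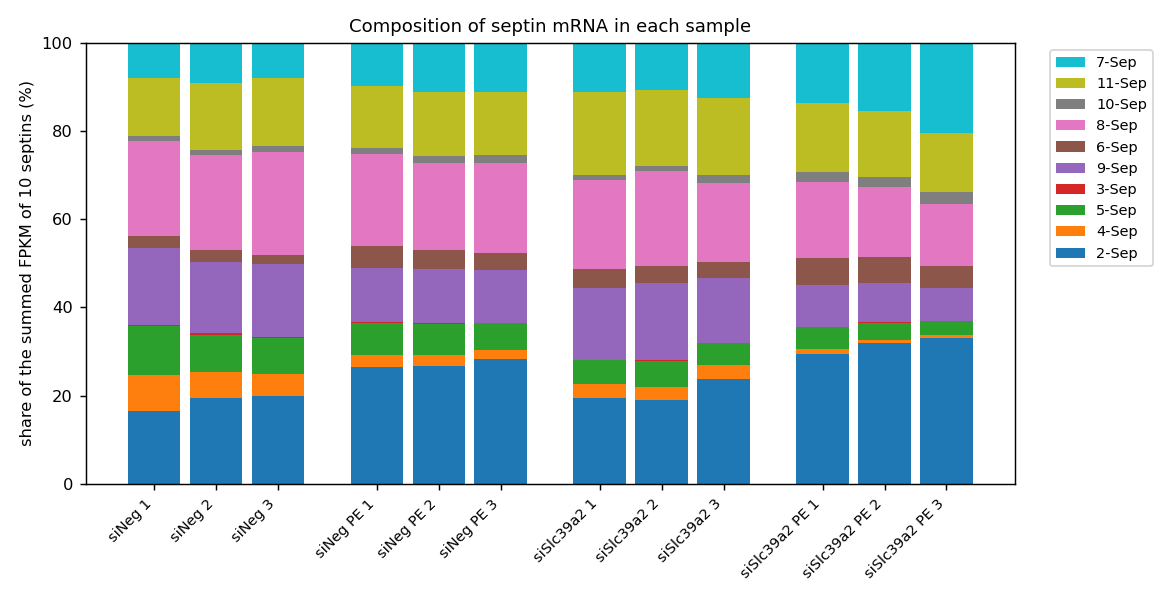
Share of each septin in the summed FPKM of the 10 members (vertical axis, percent) in each of the 12 samples (horizontal axis). The lowest segment, 2-Sep, grows from 18.6% on average in siNeg to 31.5% in siSlc39a2 PE, the 4-Sep segment above it shrinks to 0.868%, and the top segment, 7-Sep, grows to 16.5%.

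Among genes that work with septins, some were higher and some lower in each comparison. Of 25 listed partners and regulators, 24 were tested. With the knockdown 5 were higher and 6 lower without PE (median log2 fold change -0.09), where 22.8% of all genes were higher and 26.4% lower. In PE-treated cells 10 were higher and 5 lower with the knockdown (0.13), where 29.2% of all genes were higher and 28.1% lower. With PE 5 were higher and 5 lower in control cells (0.03), beside 24.0% and 25.7% of all genes, and 11 were higher and 3 lower in knockdown cells (0.21), beside 30.7% and 29.3%. The medians of all genes in these comparisons lay between -0.02 and 0.01. Myh9, a non-muscle myosin heavy chain that binds septin 2, had 219, 393 and 443 CPM in siNeg and 200, 183 and 138 CPM in siSlc39a2, a log2 fold change of -1.02 (SE 0.24, adjusted p = 0.00370 from edgeR). Anln, the anillin that brings septins to the cleavage furrow, rose with PE from 12.3, 20.7 and 23.0 CPM to 38.0, 53.5 and 55.5 CPM (1.39, SE 0.22, adjusted p = 2.89e-04), and by 1.89 (SE 0.22) in knockdown cells. In both cases the PE samples lay above all untreated ones.

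Xiap, the target of the ARTS form of septin 4, moved opposite to 4-Sep with the knockdown in PE-treated cells. It had 8.03, 12.4 and 11.3 CPM in siNeg PE and 17.6, 26.2 and 32.9 CPM in siSlc39a2 PE, which gave a log2 fold change of 1.27 (SE 0.23, adjusted p = 4.03e-04 from edgeR). Without PE the knockdown effect on Xiap was 0.91 (adjusted p = 0.00634). With PE its values were 0.595 (adjusted p = 0.0522) in control and 0.955 (adjusted p = 0.00259) in knockdown cells. A link between Xiap and 4-Sep was not tested. Cit, the citron kinase of late cytokinesis, fell by 1.02 on the log2 scale (SE 0.21) with the knockdown in PE-treated cells. Kif17, a kinesin motor, fell with PE by 1.27 (SE 0.36) in control and by 1.62 (SE 0.39) in knockdown cells, at between 4 and 44 counts per sample. Dnm1l, the GTPase of mitochondrial division, rose with PE in knockdown cells by 1.14 (SE 0.17), and Cenpe, a kinesin of the centromere, by 1.22 (SE 0.34).

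Most cytokinesis genes rose with PE. Of 18 listed genes, all tested, 16 were higher and 0 lower with PE in control cells (median log2 fold change 1.01), where 24.0% of all genes were higher and 25.7% lower. In knockdown cells 14 were higher and 0 lower (0.80), where 30.7% of all genes were higher and 29.3% lower. The largest rises in control cells were those of Cep55, an abscission scaffold (1.86, SE 0.33), Ect2, an exchange factor for small GTPases at the furrow (1.81, SE 0.32), the proliferation marker Mki67 (1.77, SE 0.30) and Prc1, a bundler of spindle microtubules (1.61, SE 0.24). In knockdown cells they were Prc1 (1.94, SE 0.24), Ect2 (1.90, SE 0.32), Anln (1.89, SE 0.22) and Cep55 (1.65, SE 0.32). With the knockdown, 0 were higher and 4 lower without PE (median -0.25), beside 22.8% of all genes higher and 26.4% lower. In PE-treated cells 0 were higher and 8 lower with the knockdown (-0.28), beside 29.2% and 28.1% of all genes. Of these 8, only Cit passed both thresholds.

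Of 24 actin and microtubule scaffold genes, all tested, 4 were higher and 16 lower with the knockdown (median log2 fold change -0.32), beside 22.8% of all genes higher and 26.4% lower. With PE in control cells 9 were higher and 9 lower (0.11), beside 24.0% and 25.7% of all genes. With the knockdown in PE-treated cells 6 were higher and 7 lower (0.03), beside 29.2% and 28.1%, and with PE in knockdown cells 14 were higher and 6 lower (0.44), beside 30.7% and 29.3%. Rnd1, an atypical small GTPase that loosens the actin skeleton, had the largest rise of these genes in each of the 4 comparisons. It had 4.62, 4.43 and 4.41 CPM in siNeg, 15.8, 17.5 and 24.4 in siNeg PE, and 15.2, 16.3 and 13.8 in siSlc39a2. In siSlc39a2 PE it had 80.0, 79.1 and 70.7 CPM. Its log2 fold changes were 1.75 (SE 0.15) with the knockdown, 2.10 (SE 0.15) with PE, 1.995 (SE 0.13) with the knockdown in PE-treated cells and 2.34 (SE 0.14) with PE in knockdown cells. The knockdown lowered Tubb2b, a beta-tubulin, by 1.48 (SE 0.11) and Flna, the actin crosslinker filamin A, by 1.26 (SE 0.13). PE raised Tuba1a, an alpha-tubulin, by 1.51 (SE 0.10) in control and by 1.94 (SE 0.10) in knockdown cells, and the actin nucleator Diaph3 by 1.27 (SE 0.33) and 1.47 (SE 0.34).

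The rest of the genes that the naming rule takes from these lists are the following. In PE-treated cells the knockdown raised Rnd3, a relative of Rnd1, by 1.33 (SE 0.19) and Rock1, a kinase of actin contraction, by 1.04 (SE 0.18). In knockdown cells PE raised Diaph2, another actin nucleator, by 1.42 (SE 0.33). The interaction was called for 0 of 24 partners, 1 of 18 cytokinesis genes and 6 of 24 actin and microtubule scaffold genes, and for 3.61% of all genes.

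**Figure D4:**
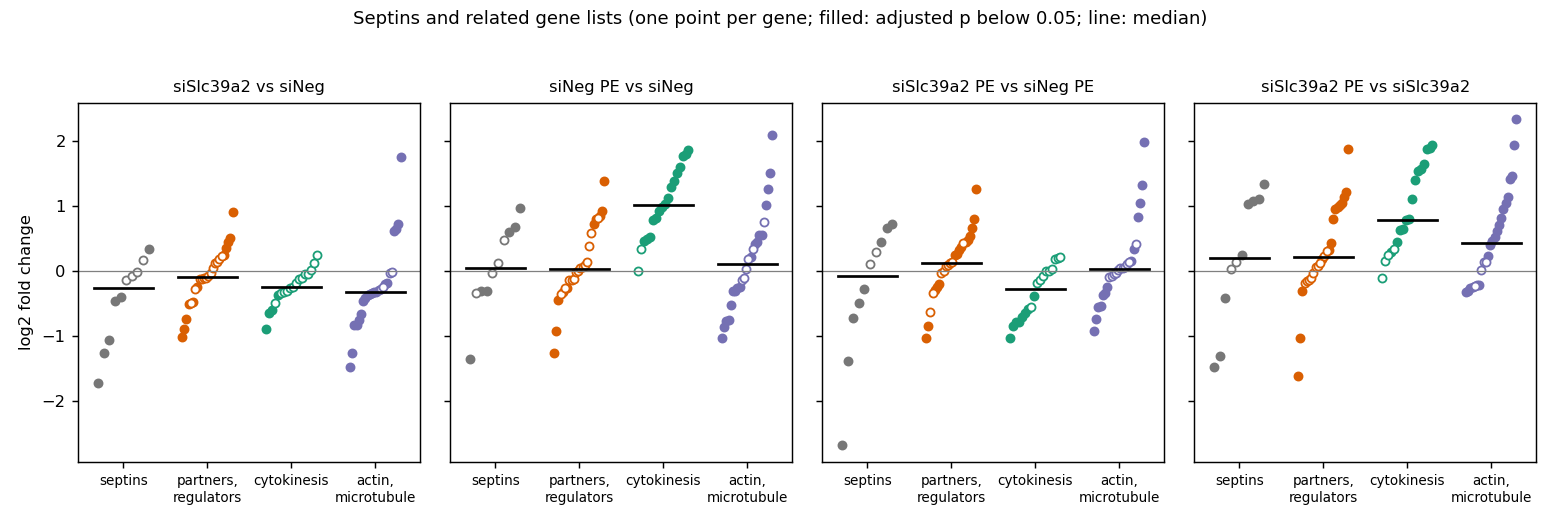
Log2 fold changes (vertical axis) of the septins and of the 3 gene lists (horizontal axis) in the 4 comparisons, with 1 point per tested gene, filled at an adjusted p below 0.05, and a line at the median of each list. The cytokinesis points lie almost wholly above 0 in both comparisons of PE, with medians of 1.01 and 0.80, while the septins spread to both sides of 0 in every panel.

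Markers of other cells moved with the groups as well. For the counts that follow, 22.8% of all genes were higher and 26.4% lower with the knockdown without PE. In PE-treated cells 29.2% of all genes were higher and 28.1% lower with the knockdown. With PE the shares of all genes were 24.0% higher and 25.7% lower in control cells and 30.7% and 29.3% in knockdown cells. Of 8 fibroblast markers, 6 were lower and 1 higher with the knockdown, both without and with PE, and the summed level fell from between 9171 and 11750 CPM in siNeg PE to between 3582 and 4949 CPM in siSlc39a2 PE. With PE, 2 were higher and 4 lower in control cells and 3 were higher and 4 lower in knockdown cells. The collagens and Postn fell past both thresholds with the knockdown, while Tcf21, a transcription factor of cardiac fibroblasts, had 27.5, 28.0 and 26.7 CPM in siNeg and 35.1, 33.2 and 35.9 CPM in siSlc39a2. Of 6 smooth muscle and pericyte markers, 6 were lower with the knockdown without PE, and 1 was higher and 1 lower with PE. With PE 1 was higher and 3 lower in control cells, and 3 were higher and 2 lower in knockdown cells. Their sums were between 2261 and 2352 CPM in siNeg, 1411 and 1772 in siNeg PE, 913 and 941 in siSlc39a2, and 1384 and 1532 in siSlc39a2 PE. The 1 higher with the knockdown in PE-treated cells was Cnn1, a smooth muscle calponin (log2 fold change 0.50, SE 0.077, adjusted p = 1.45e-04 from edgeR), which PE raised by 2.57 (SE 0.083) in control and by 4.29 (SE 0.091) in knockdown cells. Endothelial markers summed to between 16.6 and 26.7 CPM in the 4 groups. Macrophage markers summed to between 22.3 and 27.5 CPM in siNeg and between 15.05 and 16.6 in siNeg PE. With the knockdown they summed to between 16.8 and 18.6 CPM in siSlc39a2 and between 12.0 and 13.0 CPM in siSlc39a2 PE. Of 7 macrophage markers, 3 were lower with the knockdown without PE and 2 in PE-treated cells. With PE 3 were lower in control cells and 3 in knockdown cells, and 0 were higher in each of the 4 comparisons. Of 8 Schwann and neuronal markers, 4 were tested. Of these 3 were lower and 0 higher with the knockdown without PE, and 3 were lower and 1 higher with PE, while 1 was higher and 1 lower with PE in control cells and 1 higher and 0 lower in knockdown cells. S100b, a calcium-binding protein of glia, fell with the knockdown by 2.13 on the log2 scale (SE 0.31, adjusted p = 1.09e-04 from edgeR) and by 1.70 (SE 0.31) in PE-treated cells, and Tubb3, a neuronal beta-tubulin, fell by 0.66 (SE 0.14, adjusted p = 0.00177) and 0.37 (SE 0.14). Sox10, Snap25 and Stmn2 had at most 4 counts in any sample. The list summed to between 79.3 and 82.7 CPM in siNeg, 98.8 and 105.5 in siNeg PE, 44.4 and 46.7 in siSlc39a2, and 84.7 and 95.6 in siSlc39a2 PE, mainly from Uchl1, with 66.9 CPM on average in siNeg and 36.8 in siSlc39a2. The part of these markers in the septin changes was not tested.

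The genes most like 4-Sep and 3-Sep over the 12 samples, by Pearson's r of log2 CPM, were looked up because these septins had the largest fold changes. For 4-Sep they were Mgst3 (r = 0.997), Tmem143 (0.993), Slc27a1 (0.993), Vmac (0.993) and Slc25a34 (0.992). For 3-Sep they were Cyp4f1 (0.986), Dnajb14 (0.985), Lancl1 (0.985), Rab40b (0.983) and Cntnap1 (0.982). The points of these correlations are groups of 3 samples that share treatment, so a gene with the same order of group levels reaches a high r, and they are given as a description.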

How the data were processed

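RNA-seq of 12 NRVM samples was analysed from processed values. The authors deposited expected counts per gene (reads that fit several genes are split, and 78.7% of the values were whole) and FPKM values for the same 18483 genes. The submitters' processing notes name HISAT, Bowtie2 and the genome build Rnor_6.0, while the counting program is not given in the sources used here. The authors' own tests used limma after normalization between arrays, with a threshold of 1 on the absolute log2 fold change and 0.05 on the adjusted p.

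Expected counts were rounded, filtered by filterByExpr (13967 genes kept, 4516 left out), scaled by TMM and fitted over all 4 groups in edgeR 4.0.16 (R 4.3.3). Its quasi-likelihood F-test compared the groups, and p-values were adjusted over all genes tested by the method of Benjamini and Hochberg. A count test was used because counts were deposited. The interaction subtracts the knockdown effect without PE from the one with PE. CPM and FPKM are given per sample, and levels of different genes are compared on FPKM alone.

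Alternatives were DESeq2 1.42.0, RLE size factors, no filter, a fit on the compared groups alone, a replicate block, limma 3.58.1 on log2(FPKM + 1) and log2(FPKM + 0.1), and leaving out each sample. The code was tested on simulated data. The members and the gene lists were chosen with earlier results of these data known. All septins are named, and of each list up to 4 genes per comparison past both thresholds, by size. The 5 genes most like the 2 septins with the largest fold changes are named too. Tcf21, Uchl1, S100b, Tubb3, Cnn1, Gp1bb and the marker genes at or near 0 were named after their values were seen. P-values measure the spread between the deposited replicates. The precision of a value is limited by its counts, from 4 for 3-Sep to 8464 for 2-Sep in a sample.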

Additional observations from a re-analysis of the deposited data

How the results depend on the processing

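The calls of 3-Sep, 4-Sep, 5-Sep, 6-Sep, 8-Sep and 9-Sep with the knockdown, with and without PE, kept their direction and stayed below an adjusted p of 0.05 in every alternative they entered and with each sample left out, as did those of 4-Sep, 6-Sep, 2-Sep and 9-Sep with PE in control cells. 3-Sep gave no value in the limma fit with a minimum mean FPKM of 1. With limma the calls of 5-Sep and 10-Sep with PE in control cells (adjusted p up to 0.127 and 0.131) and of 11-Sep with PE in knockdown cells (up to 0.104) were lost. On log2(FPKM + 1) with limma, with or without a minimum mean FPKM of 1, the septins past both thresholds numbered 1 with the knockdown, 1 with the knockdown in PE-treated cells and 3 with PE in knockdown cells. The pseudocount shrinks the fold changes of low genes, and the fall of 3-Sep with PE in knockdown cells was then -0.22 (adjusted p = 0.185). In CPM in place of FPKM, the SEPT2, SEPT3, SEPT6 and SEPT7 shares in siNeg were 29.8%, 15.2%, 48.9% and 6.13%, and the SEPT2, SEPT6 and SEPT7 shares in siSlc39a2 PE were 34.7%, 45.6% and 12.2%, since longer mRNAs then weigh more.

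The following values changed sign, all from estimates near 0 except the last. For 11-Sep with the knockdown the log2 fold change was 0.00328 with DESeq2 and with RLE size factors, 0.0253 without the filter, 0.0124 and 0.0130 with limma at the 2 pseudocounts, 0.0165 on the compared groups alone, and -0.13 to 0.0784 with samples left out. For 10-Sep in this comparison it was -0.27 to 0.131 with samples left out. For 8-Sep with PE in control cells it was 0.113 and 0.115 with limma and -0.0989 to 0.0531 with samples left out. For 5-Sep with PE in knockdown cells it was -0.0103 and -0.0118 with limma and -0.0787 to 0.0891 with samples left out. The interaction of 3-Sep, -0.96 in edgeR, was 0.0731 on log2(FPKM + 1).

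Same-numbered samples did not deviate together throughout. Correlations of their deviations from the group means were between -0.09 and 0.32, exceeded 0.1 for each number in 0 of 6 group pairs, and in 0 of 6 did every sample correlate best with its own number. A replicate block called 2 septins in the interaction (2-Sep 0.42, adjusted p = 0.0294, and 10-Sep 0.71, adjusted p = 0.0298), and over all genes moved the interaction calls from 504 to 1053. With the block 7-Sep was also called with PE in control cells (adjusted p = 0.00787) and 2-Sep with the knockdown in PE-treated cells (adjusted p = 0.00454). The smallest counts, those of 3-Sep in siSlc39a2 PE, limit the size of its fold change.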

Other observations

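An additional septin row, 1-Sep, was measured at between 17 and 71 counts per sample. In control cells its counts were 71, 70 and 59 without PE and 50, 36 and 45 with PE, and with the knockdown 48, 39 and 30 without PE and 27, 26 and 17 with PE. Septin 1 belongs to the SEPT2 subgroup and is known mainly from lymphocytes. Its row had the order of group levels of 4-Sep, with the siNeg samples highest, the siSlc39a2 PE samples lowest and the remaining groups overlapping. The log2 fold changes were -0.90 (SE 0.22, adjusted p = 0.00479 from edgeR) with the knockdown, -0.71 (SE 0.22, adjusted p = 0.0181) with PE, -0.91 (SE 0.24, adjusted p = 0.00588) with the knockdown in PE-treated cells and -0.72 (SE 0.24, adjusted p = 0.0214) with PE in knockdown cells. RefSeq lists 13 septin genes in the rat, of which 11 were matched by gene identifier in the table.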
